A study of Mus musculus with 6 samples.

Results

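The keratins of simple epithelium and of Merkel cells were examined in tail keratinocytes of mice with and without epidermal deletion of Gpr161. The set comprised Krt7, Krt8, Krt18 and Krt20, taken as the 4 rows with these symbols among the 19618 genes of the count table. RNA was sequenced from keratinocytes isolated from tail skin of mice aged 4 months, in 3 knockout and 3 control libraries. The knockout mice carried K14cre, a Cre recombinase driven by the keratin 14 promoter and so active in basal keratinocytes and their descendants, on a background homozygous for floxed Gpr161. The controls had no K14cre in their labelled genotype; the labels give 1 of them as homozygous and 2 as heterozygous for the floxed allele. Deletion of Gpr161, a ciliary receptor that restrains Hedgehog signalling, therefore rests on Cre in keratin 14-positive cells. Merkel cells descend from that lineage in the skin.

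Keratins form intermediate filaments as heteropolymers of a type I and a type II chain. Krt7 and Krt8 encode type II chains and Krt18 and Krt20 encode type I chains, and an unpaired chain is unstable. KRT8 and KRT18 are the pair of simple, single-layered epithelia, KRT7 is typical of ducts and glands, and KRT20 marks intestinal epithelium, urothelium and Merkel cells. Merkel cells are mechanosensory cells in the basal layer of touch domes and around some hair follicles; they contain KRT8, KRT18 and KRT20, whereas the stratified keratinocytes around them are built on KRT5 and KRT14, then KRT1 and KRT10.

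Library names are the tags in the column headers, DE679, DE685 and DE688 for knockout and DE680, DE684 and DE689 for control. Which of the 3 control tags is the homozygous floxed mouse cannot be read from the headers. The labels do not say that the libraries of a group came from separate animals, so p-values measure only the spread between these libraries. Totals ran from 17157864 to 25344399 estimated counts. The floor used here, 3 counts, was 0.117 to 0.173 CPM (counts scaled to library size, with factors from the trimmed mean of M values, TMM) depending on the library. Such floors, and the Poisson intervals below, cover counting error only. The transcript of the targeted gene, Gpr161, gave no check of the labels: its mean was 28.8 CPM with the deletion and 31.4 CPM without, a log2 difference of −0.13 (SE 0.11, edgeR adjusted p = 0.553), and which exons are floxed is not given in the sources used here. All 7 keratinocyte markers were measured in every library, with a summed level of 37300 to 55000 CPM. Y-linked transcripts were present in DE685 and DE684, 1 library of each group.

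Krt7, Krt8 and Krt18 lie on chromosome 15 and Krt20 on chromosome 11 (GRCm38, the mm10 build of the files). Krt7 spans 101411043 to 101430313 on the plus strand of chromosome 15. Krt8 spans 101996698 to 102004482 on the minus strand and Krt18 spans 102028180 to 102032027 on the plus strand, 23697 bases apart and transcribed away from each other. Krt20 lies at 99428403 to 99438150 on the minus strand of chromosome 11. Exons of Krt7 overlap those of the antisense gene Gm671, which had 0 to 4 counts per library, and exons of Krt8 overlap those of the long noncoding RNA Gm36026, not analysed here. Use of strand in the counting is not stated. Of annotated transcripts, the pseudogene Krt8-ps matched Krt8 at 98.6% identity over 941 bases and Gm5200 matched Krt18 at 90.5% over 1267 bases. Neither copy was analysed here, so reads shared with them are a source of uncertainty for the Krt8 and Krt18 counts.

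The promoters of Krt8 and Krt18 are shown because the proteins are partners and the genes are neighbours, while their transcript levels differed widely (below). Both are RefSeq sequences on GRCm38.p6, 5′ to 3′ on the gene's own strand, from 250 bases before to 50 bases after the RefSeq start. All 4 members matched an entry. Capitals mark the letters TATAAA or their reverse complement.
Krt8: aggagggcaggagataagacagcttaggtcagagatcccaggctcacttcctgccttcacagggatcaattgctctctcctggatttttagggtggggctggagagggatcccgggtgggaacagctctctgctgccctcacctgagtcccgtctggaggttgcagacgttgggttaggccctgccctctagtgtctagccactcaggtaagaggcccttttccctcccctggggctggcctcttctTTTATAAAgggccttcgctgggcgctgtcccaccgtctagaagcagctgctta
Krt18: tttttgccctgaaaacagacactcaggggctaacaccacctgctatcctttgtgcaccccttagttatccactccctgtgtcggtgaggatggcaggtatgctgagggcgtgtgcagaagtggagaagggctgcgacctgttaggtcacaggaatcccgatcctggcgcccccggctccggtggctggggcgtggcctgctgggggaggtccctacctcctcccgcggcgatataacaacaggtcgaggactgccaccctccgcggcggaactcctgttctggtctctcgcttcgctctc
The Krt8 window covers 102004293 to 102004592 of chromosome 15 and the Krt18 window 102027966 to 102028265. For Krt7, Krt8 and Krt18 the RefSeq start lies inside the gene span given above, so motif positions hold for the RefSeq start only. The Krt7 window, 101412153 to 101412452, lies wholly inside its gene span. The letters TATAAA, the core of a TATA box, occurred in the Krt8 window on both strands in overlapping matches, at the RefSeq start, and once in the Krt20 window, 29 bases before the start. They were not in the Krt7 or Krt18 window. Searched on both strands, TATAAA occurs in 13.6% of 32817 promoter windows of the same length. Neither GACCACCCA, the consensus of GLI factors of the Hedgehog pathway, nor TGANTCA, the AP-1 site, was found in any of the 4 windows. Of all windows, 0.253% hold the first and 7.81% the second.

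No simple or Merkel keratin passed the test between the groups, and all 4 were minor keratins of these cells. Krt7 and Krt8 were well above the floor, and Krt18 and Krt20 were close to it. Of the 3 members that passed the low-count filter, 0 passed edgeR's quasi-likelihood test at an adjusted p of 0.05. That test called 1.60% of 15422 genes, 1.24% as higher and 0.357% as lower in the knockout. At an unadjusted p under 0.05 the count was again 0 of 3, against 19.0% of all tested genes. limma-voom and limma with a trend also called 0 of 3, and the DESeq2 Wald test 0 of 2, Krt20 having no adjusted p there. The fitted differences of the 3 were 0.019, 0.13 and 0.41 on the log2 scale, with a median of 0.13, beside a median of −0.0036 over all tested genes.

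**Figure D1:**
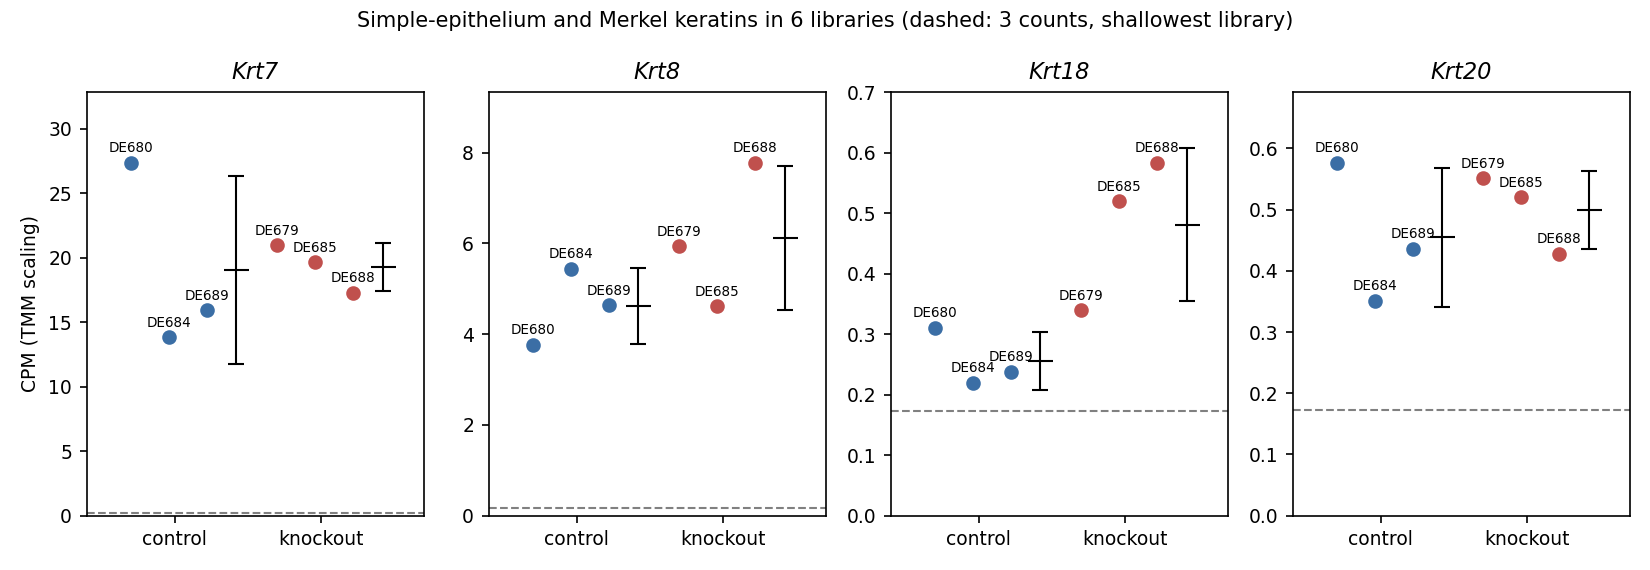
CPM with TMM scaling (linear axes from 0, a different scale in each panel) for Krt7, Krt8, Krt18 and Krt20; points are libraries, bars are the mean and SD of 3 libraries, and the dashed line is 3 counts in the shallowest library, 0.173 CPM. Only for Krt18 do all knockout libraries (0.339 to 0.583 CPM) sit above all control libraries (0.219 to 0.311 CPM); in the other panels the groups overlap.

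Krt7, the type II keratin of ducts and glands, was the most counted member. The knockout libraries DE679, DE685 and DE688 held 494, 340 and 444 of its counts, or 21.0, 19.6 and 17.3 CPM. The control libraries DE680, DE684 and DE689 held 617, 315 and 401 counts, or 27.4, 13.8 and 15.9 CPM. The control libraries held both the highest and the lowest value, and the knockout libraries lay between them. Every library was at 105 to 206 times the floor of 3 counts. Knockout libraries averaged 19.3 ± 1.86 CPM and control libraries 19.0 ± 7.30 CPM (SD, n = 3 per genotype). On the log2 scale the difference was 0.019, with an SE of 0.24 (edgeR adjusted p = 0.975). The 95% interval of the difference ran from 0.689-fold to 1.49-fold, so the data bound a change in Krt7 to that range and do not show equal levels. Its sign was not stable: the difference was −0.041 without the knockout library DE679, −0.17 without the control library DE684 (edgeR adjusted p = 0.741) and −0.093 without the control library DE689. Without DE680, the highest control library, it was 0.37 (edgeR adjusted p = 0.204).

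Krt8, the type II partner of Krt18, was lower than Krt7 in counts but measured at a usable depth. Knockout libraries, in the order used for Krt7, held 140, 80 and 200 counts, or 5.94, 4.62 and 7.78 CPM. Control libraries held 85, 124 and 117 counts, or 3.77, 5.44 and 4.64 CPM. DE688 was highest and DE680 lowest; the knockout library DE685 lay within the control range, so the groups overlapped. Means were 6.11 ± 1.59 CPM with the deletion and 4.62 ± 0.835 CPM without it (SD, n = 3 per genotype). The log2 difference of 0.41, with an SE of 0.24, missed the threshold (edgeR adjusted p = 0.386). Its 95% interval ran from 0.909-fold to 1.94-fold. Leaving out DE688 brought the difference to 0.20 (edgeR adjusted p = 0.742) and leaving out DE685 to 0.57 (edgeR adjusted p = 0.258).

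Krt18, the type I partner of Krt8, was near the floor in every library. Knockout libraries, in the same order, held 8, 9 and 15 counts, or 0.339, 0.520 and 0.583 CPM. Control libraries held 7, 5 and 6 counts, or 0.311, 0.219 and 0.238 CPM, and all 6 were at 1.67 to 5.00 times the floor. All 3 knockout libraries were above all 3 control libraries, although DE679 exceeded DE680 by only 1 count. Krt18 was the 1 member of 4 without overlap, a pattern found in 22.7% of all 19618 genes and 25.6% of the tested ones; 11.5% of all genes had every knockout library on top. Summed counts were 32 in the knockout (exact Poisson 95% interval 21.9 to 45.2) and 18 in the control (10.7 to 28.4), intervals that overlap.

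Krt18 did not pass the low-count filter, so the fit over filtered genes gave no test for it. Its means were 0.481 ± 0.127 CPM with the deletion and 0.256 ± 0.0482 CPM without it (SD, n = 3 per genotype), a log2 ratio of 0.91. With the filter dropped, a fit that called 1.17% of genes gave Krt18 a log2 difference of 0.89 with an SE of 0.46 (edgeR adjusted p = 0.375). Its 95% interval ran from 0.896-fold to 3.85-fold. A difference was therefore not detected at this depth, and the interval includes equal levels.

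Krt20, the type I keratin most specific to Merkel cells in skin, was also near the floor. Knockout libraries held 13, 9 and 11 counts, or 0.551, 0.520 and 0.428 CPM. Control libraries held 13, 8 and 11 counts, or 0.577, 0.351 and 0.436 CPM. The groups overlapped, with the highest and the lowest library both in the control. Summed counts were 33 (exact Poisson 95% interval 22.7 to 46.3) and 32 (21.9 to 45.2). The means differed by 1.09-fold, with SDs of 0.0641 and 0.114 CPM (n = 3 per genotype), and the fitted log2 difference was 0.13 with an SE of 0.38 (edgeR adjusted p = 0.883). Its 95% interval ran from 0.597-fold to 2.01-fold, and without DE684 the difference was −0.022.

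**Figure D2:**
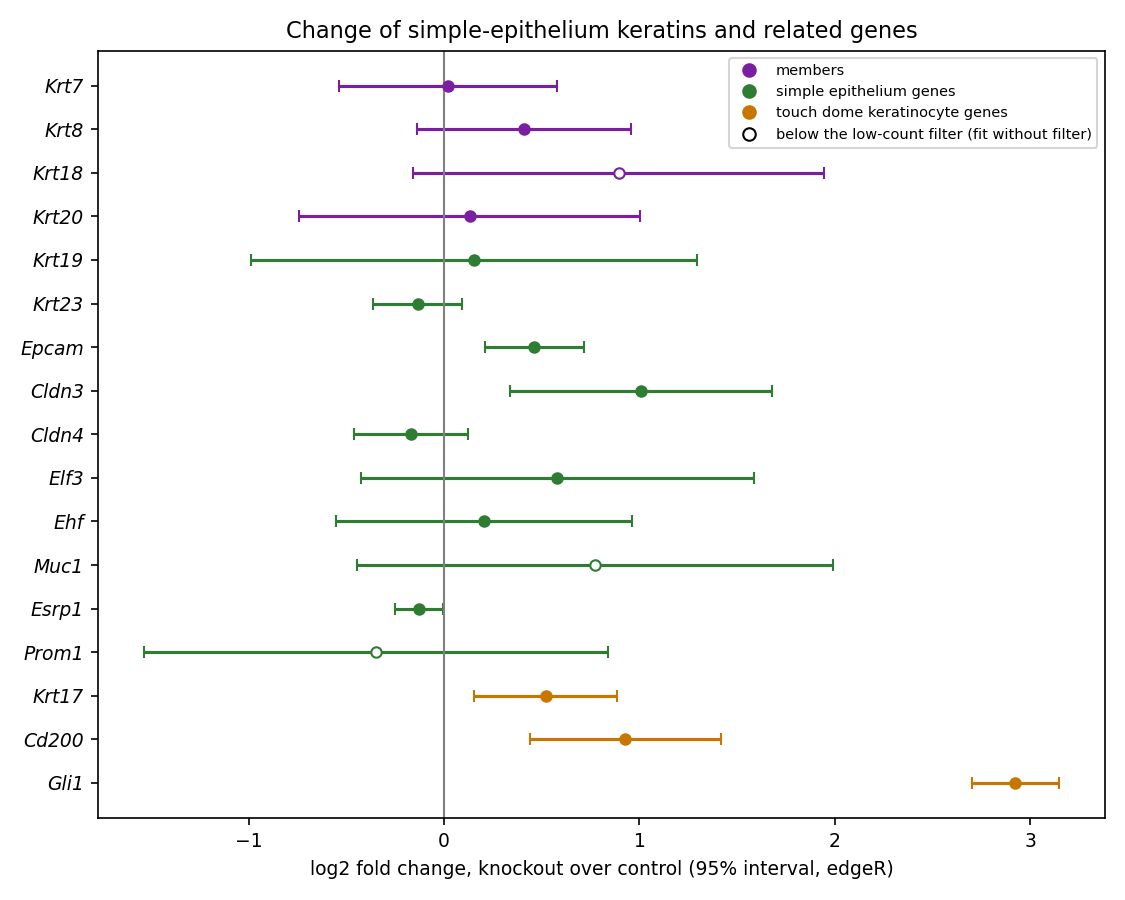
Log2 fold change of knockout over control with its 95% interval from edgeR for the 4 keratins, 10 of the simple epithelium genes and the touch dome keratinocyte genes; open points are genes below the low-count filter, taken from the fit without a filter. All 4 keratin intervals include 0, and Gli1 lies far to the right at 2.93.

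Per length of exon, the members formed a higher and a lower pair. Krt8 had 1.93 to 3.97 CPM per kb and Krt7 1.96 to 3.88 CPM per kb over the 6 libraries, ranges that overlap on this length. Krt18 had 0.153 to 0.406 CPM per kb and Krt20 0.182 to 0.299 CPM per kb, again within each other's range. In every library the first pair exceeded the second. Among 51 keratin genes ordered by mean level per kb, Krt8 was at place 29, Krt7 at 30, Krt18 at 45 and Krt20 at 46. The place of Krt7 rests on its exonic length of 7049 bases, which includes exons of minor transcripts; over its principal transcript of 4094 bases it had 3.38 to 6.69 CPM per kb. On principal transcripts the order of Krt7 and Krt8 turned: Krt7 was at place 24 of 50 keratins and Krt8 at 30, and Krt7 was 1.06 to 3.47 times Krt8, above it in every library. Which of the pair has more transcript therefore depends on the length used.

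**Figure D3:**
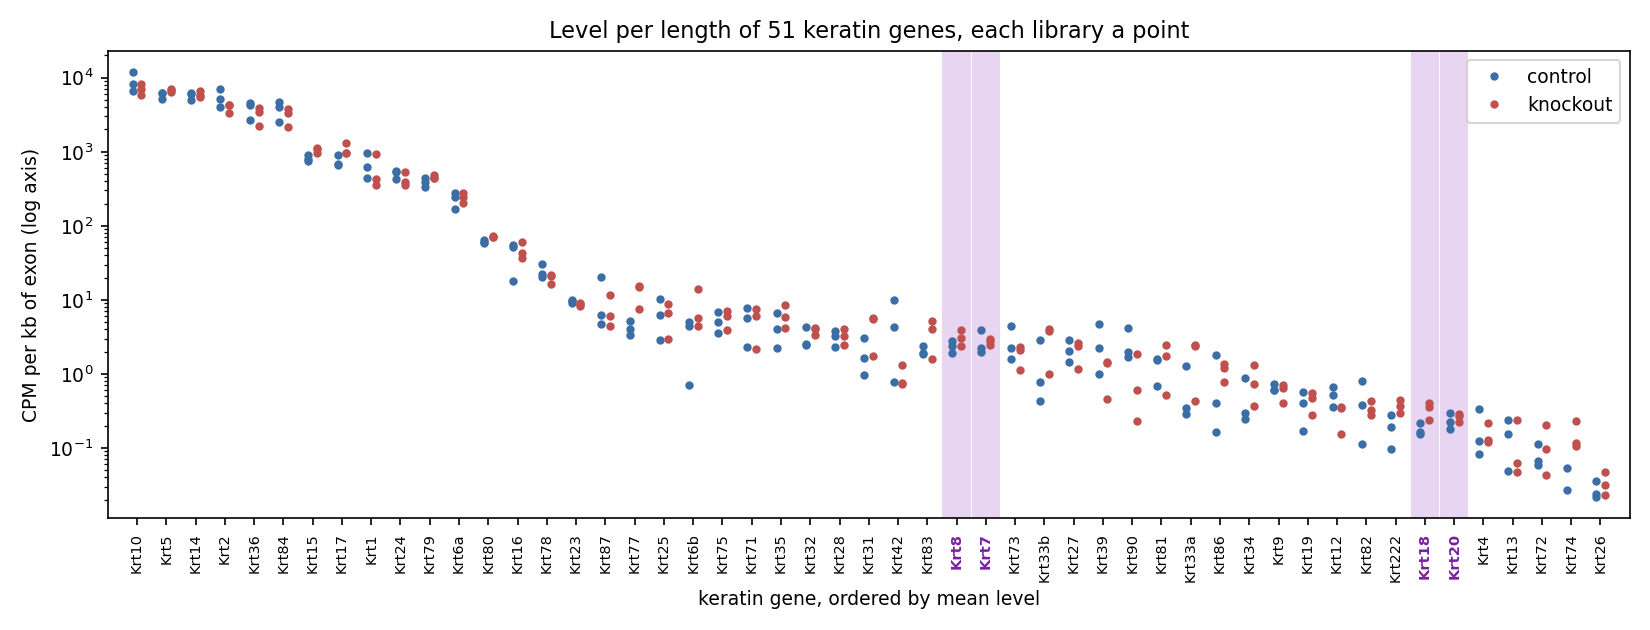
CPM per kb of exon (log axis) for 51 keratin genes ordered by mean level, with each library a point; shaded columns are the 4 members, and libraries at 0 are not drawn. Krt8 and Krt7 sit at places 29 and 30 and Krt18 and Krt20 at places 45 and 46, far below Krt10, Krt5 and Krt14.

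The type II chains Krt7 and Krt8 had more transcript than the simple-epithelium type I chains Krt18, Krt19 and Krt20, and less than other type I keratins of these cells such as Krt23 and Krt14. Per kb of exon, Krt8 exceeded its partner Krt18 by 6.52 to 18.2 times, with a median of 11.3 times. The ratio was 6.52 to 12.8 in the knockout and 8.91 to 18.2 in the control, so the groups overlapped. Krt19, a further type I simple keratin, had 7 to 27 counts per library, and with it included the sum of Krt7 and Krt8 was still 4.68 to 8.51 times the sum of Krt18, Krt19 and Krt20 per kb. Krt23, a type I keratin that is higher in these cells, had 8.19 to 10.1 CPM per kb, 2.60 to 4.90 times the level of Krt7. Over principal transcripts Krt23 had the same range and Krt7 had 3.38 to 6.69 CPM per kb. Ratios that include Krt7 therefore depend on the length used. Against the basal keratinocyte keratin Krt5, the levels were small: Krt5 exceeded Krt8 by 1592 to 3242 times per kb. The 4 members made up 0.0126% to 0.0221% of the summed keratin level per kb.

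Across the 6 libraries, Krt7 with Krt20 had the highest correlation of the member pairs, and Krt8 with its partner had a lower one. Pearson's r of log2(CPM + 0.5) was 0.937 for Krt7 with Krt20 and 0.471 for Krt8 with Krt18. It was −0.467 for Krt7 with Krt8, −0.432 for Krt8 with Krt20, 0.214 for Krt7 with Krt18 and 0.252 for Krt18 with Krt20. These values describe 6 libraries that also share depth and scaling, and Krt18 and Krt20 carry at most 15 counts in any of them. The 3 genes most like Krt7 in this measure were Tnfrsf10b, Tppp and Fbxl8 (r from 0.973 to 0.976). For Krt8 they were Chtf18, Cep78 and Mtcl1 (r from 0.973 to 0.987), and for Krt20 they were Gm20342, Ier3 and Cdk16 (r from 0.984 to 0.996). They were picked as the highest among 13678 or more candidates over 6 points, so high values were bound to occur.

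Other genes of simple epithelium were fixed as a list of 12, of which 9 were tested. None passed an adjusted p of 0.05 in edgeR, limma-voom or limma with a trend. In edgeR 4 had an unadjusted p under 0.05, 2 higher and 2 lower, beside 19.0% of all tested genes. DESeq2, which called 879 of all genes against 247 in edgeR, called Epcam alone. The median of the 9 differences was 0.15 on the log2 scale. Esrp1, 1 of the 2 most abundant, encodes an epithelial splicing factor and averaged 506 ± 1.76 CPM with the deletion and 553 ± 9.33 CPM without it (SD, n = 3 per genotype; log2 difference −0.13, edgeR adjusted p = 0.238). Epcam, an adhesion molecule, had 123 ± 10.7 and 89.6 ± 12.5 CPM (0.46, edgeR adjusted p = 0.0901). The Krt23 difference was −0.14 (edgeR adjusted p = 0.490) and that of Krt19 was 0.15 (edgeR adjusted p = 0.896).

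Transcription factors that define Merkel cells were at or near the floor, as were Krt18 and Krt20. Of 17 Merkel cell genes, 13 had a row in the count table, 5 were tested, and 0 passed in edgeR, limma-voom or limma with a trend. In edgeR 2 had an unadjusted p under 0.05, 1 higher and 1 lower, beside 19.0% of all tested genes. DESeq2, which called 310 of all genes lower against 55 in edgeR, called Tubb3 lower. None of the 13 was at 0 in all libraries, but every row of the count table summed to at least 10, so this was fixed in advance. Atoh1, the transcription factor that specifies Merkel cells, had 3 to 6 counts per library, with 13 in all knockout and 12 in all control libraries. Sox2 had 4 to 11 counts and Isl1 1 to 5, while Gfi1 stayed at or under 3 counts in every library. Summed counts in knockout and control were 18 and 20 for Sox2, 10 and 5 for Isl1 and 6 and 7 for Gfi1. They were 9 and 16 for Insm1 and 24 and 15 for Pou4f3. Piezo2, the mechanosensitive channel of Merkel cells, averaged 1.05 ± 0.450 CPM with the deletion and 1.74 ± 0.540 CPM without it (SD, n = 3 per genotype; log2 difference −0.72, edgeR adjusted p = 0.362).

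The summed level of the 13 Merkel genes was 14.1 to 23.0 CPM in the knockout and 26.0 to 36.9 CPM in the control, without overlap. That gap came with Tubb3, a neuronal tubulin, which had 15.1, 9.53 and 14.3 CPM in DE679, DE685 and DE688 and 31.0, 22.6 and 18.1 CPM in DE680, DE684 and DE689 (log2 difference −0.87, edgeR adjusted p = 0.114). Ncam1, an adhesion molecule of Merkel and nerve cells, went the other way with 1.92 ± 0.903 and 0.874 ± 0.147 CPM (1.14, edgeR adjusted p = 0.178). Without Tubb3, the other 12 genes summed to 4.56 to 8.71 CPM in the knockout and 4.69 to 7.97 CPM in the control, ranges that overlap. In bulk RNA, fewer cells of a type and less RNA per cell cannot be told apart, so these levels do not count Merkel cells.

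**Figure D4:**
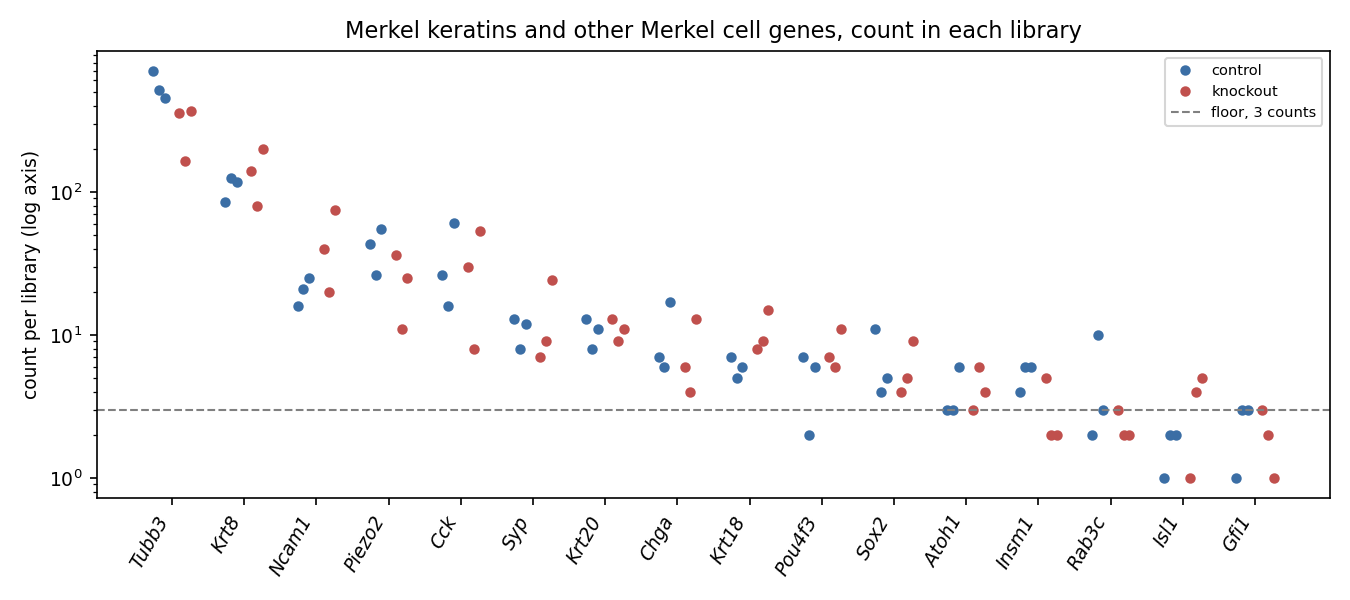
Counts per library (log axis) of Krt8, Krt18, Krt20 and 13 other Merkel cell genes; the dashed line is the floor of 3 counts. Krt18 (5 to 15 counts) and Krt20 (8 to 13 counts) sit among the Merkel transcription factors near the floor, and Krt8 (80 to 200 counts) lies well above them.

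Touch dome keratinocytes surround Merkel cells and are a Hedgehog-responsive population of the epidermis. Of 3 genes listed for them, 1 rose in the edgeR test, which called 1.24% of all genes higher. The list was chosen with earlier results of these data known, so its call cannot be weighed against that share. Gli1, a transcriptional effector and target of Hedgehog signalling, averaged 69.4 ± 4.42 CPM with the deletion and 9.15 ± 0.857 CPM without it (log2 difference 2.93, edgeR adjusted p = 1.77e-05). Cd200, an immune-regulatory surface protein, had 38.2 ± 5.06 and 20.1 ± 5.80 CPM (0.93, edgeR adjusted p = 0.0858). Krt17 had 1679 ± 312 and 1172 ± 202 CPM (0.52, edgeR adjusted p = 0.146). DESeq2 called all 3 higher, and over all genes it called 569 higher, against 192 in edgeR. The differences of Krt8, Krt18 and Krt20, with intervals given above, were not tested against that of Gli1.

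Proteins that attach to or organise keratin filaments were measured at far higher levels and were not called. Of 7 fixed genes, 0 passed in edgeR, DESeq2, limma-voom or limma with a trend. In edgeR 1 had an unadjusted p under 0.05, beside 19.0% of all tested genes. Dsp, the desmosomal anchor of keratin filaments, averaged 5834 ± 345 CPM with the deletion and 6375 ± 302 CPM without it (−0.13, edgeR adjusted p = 0.369). Pkp1, a desmosomal plaque protein, had 3107 ± 198 and 3367 ± 174 CPM (−0.12, edgeR adjusted p = 0.423). Tchp, or trichoplein, a protein that binds KRT8 and KRT18, had 11.5 ± 0.991 and 8.55 ± 0.551 CPM (0.43, edgeR adjusted p = 0.128).

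In the rest of the keratin family, 42 of 47 genes were tested and 1 passed in edgeR, beside 1.60% of all tested genes. The edgeR call was Krt77, a suprabasal and sweat duct keratin (log2 difference 1.60, edgeR adjusted p = 0.0395). Its levels were 22.3, 43.8 and 45.4 CPM in the knockout libraries DE679, DE685 and DE688. In DE680, DE684 and DE689 they were 9.89, 11.7 and 15.2 CPM. DESeq2 called 4 higher (Krt15, Krt17, Krt77 and Krt80), limma with a trend 1 and limma-voom 0. Over all genes DESeq2 called 569 higher, against 192 in edgeR. Krt77 missed the threshold in limma-voom (adjusted p = 0.0768) and in edgeR without DE680, DE684, DE685, DE688 or DE689 (adjusted p from 0.0816 to 0.136). A further 6 had an unadjusted p under 0.05 in edgeR without passing. With Krt77 that made 7 of 42, beside 19.0% of all tested genes. The median difference of the 42 was 0.078. The stress keratins gave 0 calls among 4 genes in edgeR, with 1 at an unadjusted p under 0.05, and in DESeq2 1 call (Krt17). The list of companion, medulla and follicle keratins, which includes Krt79, gave 0 calls among 6 in edgeR, with 0 at an unadjusted p under 0.05, and 0 in DESeq2.

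Markers of gland cells and fibroblasts were also measured. Whether these samples held glands that contain KRT7, KRT8 and KRT18 was not tested. The lists were chosen with earlier results of these data known, so calls in them cannot be weighed against the share of all genes. Of 6 genes listed for sweat gland secretory cells, 2 had no row in the count table and 4 were tested. The edgeR test called 3 higher, Foxc1, Scnn1b and Atp6v1b1, beside 1.24% of all tested genes. In that order their differences were 0.67, 2.52 and 1.31 on the log2 scale (edgeR adjusted p = 0.0186, 0.00139 and 0.0469). Atp6v1b1 encodes a proton pump subunit, and Foxc1 and Scnn1b are also expressed in hair follicle or epidermal cells. Foxc1 missed the threshold without DE685, DE688 or DE689 (edgeR adjusted p from 0.0509 to 0.0784). Atp6v1b1 missed it without any 1 library other than DE689 (edgeR adjusted p from 0.0951 to 0.168). Aqp5, the water channel of secretory cells, had 0.669 ± 0.338 CPM with the deletion and 1.42 ± 0.192 CPM without it (−1.05, edgeR adjusted p = 0.208). The summed level of the list was 100 to 121 CPM in the knockout and 56.2 to 66.1 CPM in the control. Most of that level was Foxc1, with 89.4 and 56.2 CPM; the other 3 genes summed to 19.4 to 25.1 CPM and 5.59 to 7.81 CPM, and Aqp5 alone had the lower mean in the knockout. The part of these markers in the Krt7, Krt8 and Krt18 values was not tested. Of 6 sebaceous gland markers 0 were called in edgeR or DESeq2, with 0 at an unadjusted p under 0.05, and their sums overlapped (5540 to 6240 and 5600 to 6520 CPM). Of 6 fibroblast markers 5 were tested and edgeR called 1 higher, beside 1.24% of all tested genes. This was Dcn, a collagen-binding proteoglycan (119 and 31.9 CPM, log2 difference 1.90, edgeR adjusted p = 0.00782). The collagen genes Col1a1, Col1a2 and Col3a1 had differences of −0.38, −0.42 and −0.54 (edgeR adjusted p from 0.489 to 0.663), and the median of the 5 was −0.38. The summed level was 129 to 142 CPM with the deletion and 37.4 to 79.1 CPM without it, but without Dcn the knockout libraries, at up to 19.0 CPM, lay within the control range of 12.5 to 38.6 CPM. The part of these markers in the keratin values was not tested.

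**Figure D5:**
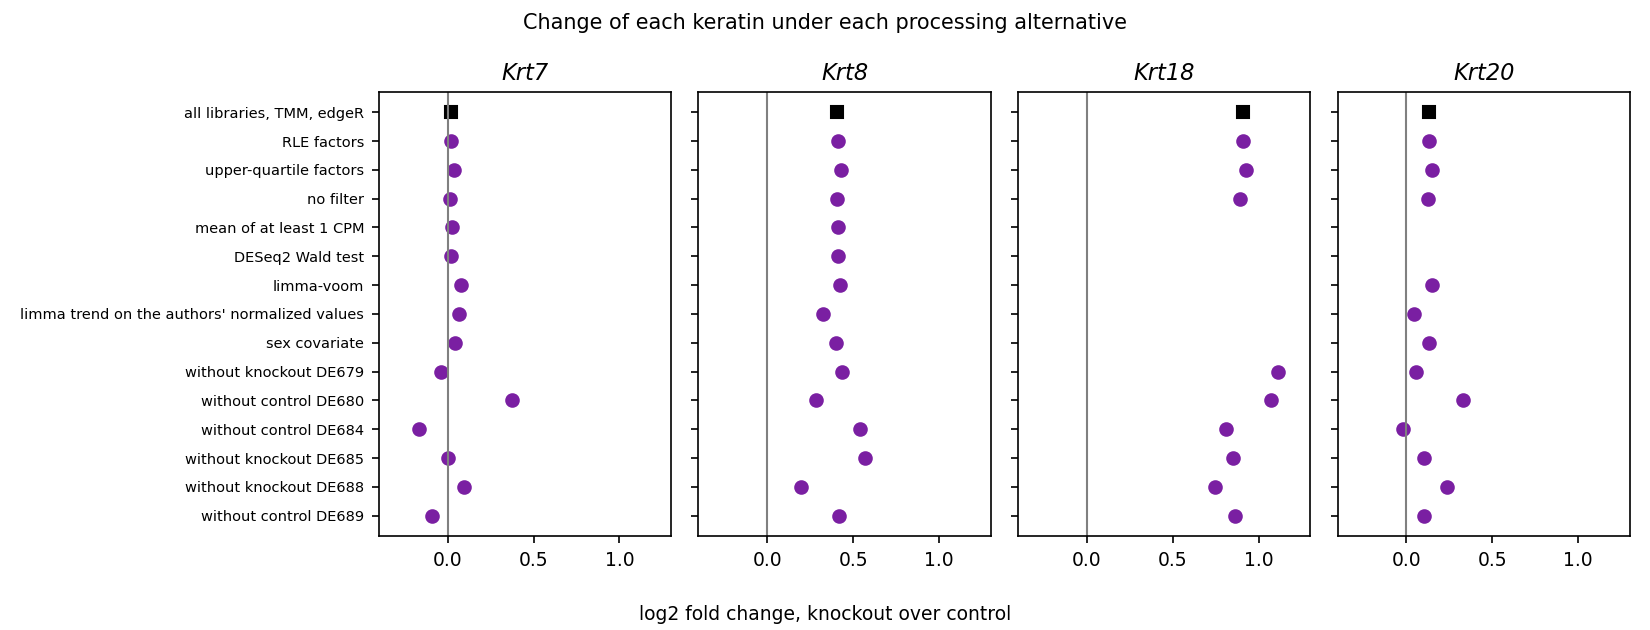
Log2 fold change of knockout over control for each keratin under each processing alternative (circles) beside the value reported here (squares, the log2 ratio of means for Krt18); alternatives without a value for a gene are left blank. Krt8 and Krt18 stay to the right of 0 throughout, while Krt7 and Krt20 cross 0 when single libraries are left out.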

How the data were processed

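Polyadenylated RNA from 6 libraries of tail keratinocytes was made into stranded libraries, per the labels' protocols. The deposited values are estimated counts for each gene, 53.0% to 57.7% of them whole in a given library, and a normalized signal made by the authors, each value an estimated count times 1 constant for its library plus 0.001. Per the submitters' processing notes, bcl2fastq 2.20, cutadapt 1.18, STAR 2.7.0f and Partek were used, with build mm10; the counting tool, annotation and strand setting are not given in the sources used here. Column names end in sorted and markdup, per the file headers.

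Columns were assigned to groups by the KO or Ctrl in their names. The test had been laid out for counts and was kept for the estimated counts, which were rounded to whole numbers. Low counts were removed with filterByExpr (minimum count 10), libraries were scaled by TMM, and genotype was fitted with the edgeR 4.0.16 quasi-likelihood test (R 4.3.3). P-values were adjusted over all 15422 genes tested (Benjamini-Hochberg, threshold 0.05). Standard errors were the log2 fold change divided by the square root of F, and 95% intervals used the test's total degrees of freedom. With 3 against 3 libraries an exact permutation test cannot go below 0.1. The fit was tested on simulated counts with the same dispersion for every gene and changes only in genes averaging at least 10 counts. That simulation gives no detection rate for genes as low as Krt18. Levels per kb used GENCODE M21 exons; copies were searched with blastn 2.17.0 (at least 90% identity over 200 bases). No 2 libraries of a group were alike to within counting noise (chi-square over its degrees of freedom, 12.1 to 39.1).

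The members and gene lists were chosen with earlier results of these data known. Named genes were the 4 members, list genes past the threshold, the 2 most abundant of a list, type I partners, and the 3 genes most correlated with each member over log2(CPM + 0.5) at a mean of at least 1 CPM. Genes named outside that rule were chosen after their values were seen or as defining markers. They were Epcam, Piezo2, Atoh1, Sox2, Isl1, Gfi1, Insm1, Pou4f3, Cd200, Tchp, Aqp5, Krt15, Krt80 and the collagen genes. Alternatives used DESeq2 1.42.0 and limma 3.58.1. Of the 2 most abundant simple epithelium genes, 1 is not reported here.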

Additional observations from a re-analysis of the deposited data

How the results depend on the processing

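No alternative brought a member past the adjusted p of 0.05. The Krt8 difference was positive in all 14 alternatives (0.20 to 0.57 on the log2 scale, adjusted p 0.258 to 0.742). The Krt18 difference was positive in all 19 (0.715 to 1.11), and the 9 adjusted p-values among them ran from 0.375 to 0.649. DESeq2 without a filter gave Krt18 no adjusted p. For Krt18, the fits without a filter by other tools, with the sex covariate or with fewer libraries, and the ratio of the authors' normalized values, were chosen after seeing the data. Leaving out 1 library at a time moved Krt7 from −0.17 to 0.37, with negative values without DE679, DE684 or DE689, and Krt20 from −0.022 to 0.33, negative without DE684 only. A minimum of 1 CPM removed Krt18 and Krt20. The number of genes called, 247, was 879 with DESeq2 (569 higher and 310 lower, against 192 and 55), 409 with a sex covariate read from Y-linked counts (299 higher and 110 lower), and 69 to 121 when a library was left out. Fits with a library left out also have fewer libraries to test with, and the cause of these changes was not tested. The marker sums without Dcn, Foxc1 or Tubb3 were not planned and were added after seeing the data. Gli1, Scnn1b and Dcn passed in all 14 alternatives; Krt77, Foxc1 and Atp6v1b1 did not, as given beside them. No paired analysis was possible because the columns carry no replicate numbers. Depth limits Krt18 and Krt20, at 5 to 15 and 8 to 13 counts per library.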
